A study of Colocasia esculenta with 9 samples.

Results

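The 100 most abundant gene models of young taro leaf are the subject here, 100 of the 57034 gene models in the annotation. They were chosen by level alone: fragments of each gene model were divided by the library total and multiplied by 1e6 (CPM), and the 100 with the highest mean CPM over 9 libraries were taken after 5 abundant and unsteady gene models (Taro_025253, Taro_025252, Taro_000496, Taro_027264 and Taro_036193) had been left out. Their levels and ranks are therefore a description and not a finding. Taro (Colocasia esculenta) is a clonally propagated aroid grown for its corm and leaves. RNA came from the 2 youngest leaves of vegetative plants of the cultivars Niue (replicates 2, 3 and 4), Palau 10, also called Ngerruuch (replicates 1, 2 and 3), and Sam-07, also called Samasama (replicates 1, 2 and 3), all 8 months old, raised from tissue culture plantlets in potting mix, with 12 h of light a day, 85% humidity and a chamber temperature of 27 °C, with no treatment named in the labels. Library totals ran from 5468567 to 18175384 fragments. Whether replicates were separate plants is not in the labels, so the spread behind a p-value may be technical.

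In green leaves a small number of nuclear genes usually supplies a large part of the messenger RNA. Well-known examples in flowering plants are the light-harvesting chlorophyll-binding proteins, which gather light for the photosystems, the small subunit of Rubisco, the enzyme that fixes carbon dioxide, and Rubisco activase, which keeps that enzyme working. Many of these genes belong to families of similar copies, and their transcripts follow light, the time of day and leaf age. Names and products are absent from the count tables, so the members are given by identifier, position and structure, and none is assigned to these families. For the same reason the labelled tissue was not checked against leaf markers. Fragments that mapped to several places were not counted, so members of near-identical families are undercounted to an unknown extent.

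Before the members are described, the libraries that stand apart are named. Palau 10 replicate 3 had the fewest members in its own list of 100 most abundant gene models, 62 of 100, against 83 to 88 in the other 8 libraries. In it 19 members lay at least 2-fold below their lowest value in any other library, against 2 in Sam-07 replicate 2 and 0 in each of the others. The 5 gene models left out took 26.3% of Niue replicate 4 and 12.5% of Niue replicate 3, against 0.351% to 7.10% elsewhere, which lowers the CPM of all other gene models in those libraries.

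The 100 members took a mean of 25.3% of all fragments. The share was 28.2%, 22.3% and 18.4% in Niue, 27.2%, 27.5% and 20.3% in Palau 10, and 31.4%, 23.8% and 28.3% in Sam-07, with libraries in the order of their replicate numbers, as in all lists of 9 values below. It was highest in Sam-07 replicate 1 and lowest in Niue replicate 4, and the ranges of the 3 cultivars overlapped. The mean share was 23.0% ± 4.92 in Niue, 25.01% ± 4.05 in Palau 10 and 27.8% ± 3.83 in Sam-07 (SD, n = 3 each). Palau 10 without replicate 3 had a mean of 27.3% ± 0.262 (SD, n = 2). The 95% Wilson interval of the share in Niue replicate 4, the shallowest library, was 18.373% to 18.438%, and such intervals cover counting error only. With the 5 gene models taken out of the totals, the shares were 28.4%, 25.5% and 24.98% in Niue, 27.7%, 27.7% and 20.9% in Palau 10, and 33.8%, 23.9% and 30.2% in Sam-07. The cultivar means on these totals were 26.3% ± 1.87 in Niue, 25.4% ± 3.94 in Palau 10 and 29.3% ± 5.03 in Sam-07 (SD, n = 3 each), and 27.7% ± 0.0424 in Palau 10 without replicate 3 (n = 2), so the order of Niue and Palau 10 depended on the total and on that library. The low value of Niue replicate 4 then lay close to that of Niue replicate 3, while Palau 10 replicate 3 was lowest. In bulk leaf RNA, fewer cells that express a gene and less RNA per cell cannot be told apart. The 10 members with the highest mean CPM held a mean of 36.7% of the members' fragments.

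**Figure D1:**
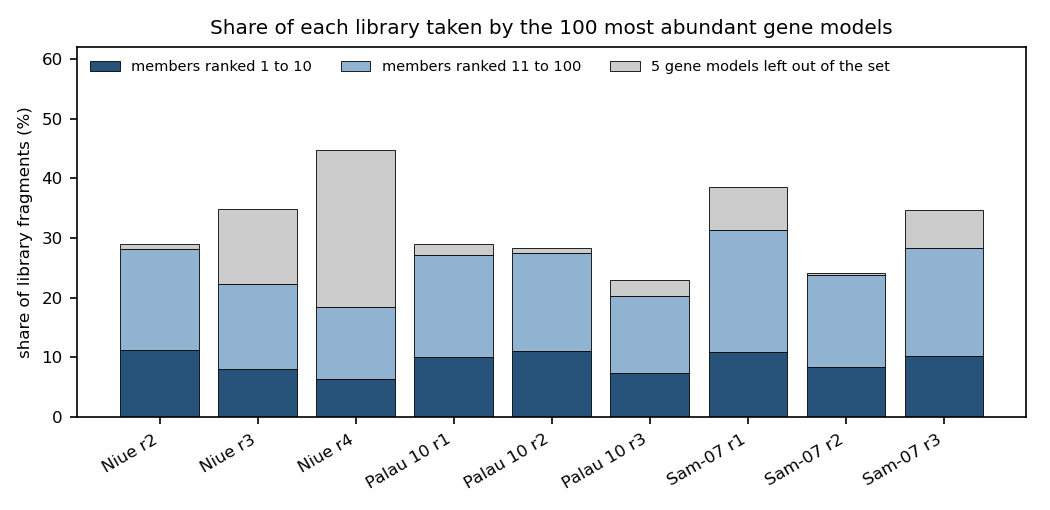
Stacked bars give the percentage of fragments in each of the 9 libraries (x axis; r is the replicate number) taken by members ranked 1 to 10, by members ranked 11 to 100 and by the 5 gene models left out of the set. The members' part runs from 18.4% in Niue replicate 4 to 31.4% in Sam-07 replicate 1, and the 5 gene models left out reach 26.3% in Niue replicate 4.

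Taro_039095 and Taro_025568 between them held first place among the members in every library except Palau 10 replicate 1. Taro_039095 (TARO_scaffold_003588, 2708 to 4057, minus strand, 3 exons) had the highest mean, 21529 CPM. Its levels were 19183, 16988 and 13347 CPM in Niue, 15098, 14733 and 36828 in Palau 10, and 38138, 16953 and 22494 in Sam-07. It led the members in Niue replicates 3 and 4, Palau 10 replicate 3 and Sam-07 replicates 1 and 3, and only Palau 10 replicate 3 and Sam-07 replicate 1 exceeded its level in Sam-07 replicate 3. Taro_025568 (TARO_scaffold_001501, 58996 to 60431, plus strand, 3 exons), the second in rank, had levels of 22276, 16933 and 11925 CPM in Niue, 16778, 24009 and 6851 in Palau 10, and 10583, 17825 and 16433 in Sam-07. It led in Niue replicate 2, Palau 10 replicate 2 and Sam-07 replicate 2, and was lowest in Palau 10 replicate 3, where Taro_039095 was high. Taro_045140 (TARO_scaffold_005238, 25073 to 27451, minus strand, 2 exons) led in Palau 10 replicate 1, with levels of 15433, 4511 and 5250.4 CPM in Niue, 19098, 20428 and 10029 in Palau 10, and 7899.6, 5354 and 14865 in Sam-07. Its 3 cultivars overlapped, and its low values fell in Niue replicates 3 and 4 and Sam-07 replicate 2.

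The 4 members given next were all lowest in Palau 10 replicate 3. Taro_037286 (TARO_scaffold_003226, 126242 to 131364, minus strand, 8 exons) had levels of 15483, 11649 and 7149 CPM in Niue, 12068, 13532 and 2256 in Palau 10, and 10529, 13224 and 8801 in Sam-07. Taro_014754 (TARO_scaffold_000622, 169711 to 170625, plus strand, 2 exons) had 9677, 7489 and 7411 CPM in Niue, 9520.1, 10651 and 2646 in Palau 10, and 5383, 9266 and 10072 in Sam-07. Both had their lowest value in Palau 10 replicate 3. Taro_018209 (TARO_scaffold_000842, 322952 to 328460, plus strand, 11 exons) had 9037, 6999.6 and 5506 CPM in Niue, 7212, 7739.8 and 722 in Palau 10, and 3471, 7594 and 7177 in Sam-07, a 12.5-fold range with Palau 10 replicate 3 again at the low end. Taro_036221 (TARO_scaffold_003034, 94835 to 100344, plus strand, 8 exons) had 8893, 5721 and 4118 CPM in Niue, 5873, 5939 and 1378 in Palau 10, and 3986, 4276 and 3405 in Sam-07. It too was lowest in that library, and highest in Niue replicate 2.

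Of the top 10, Taro_011694 had the narrowest range and the most exons of all members. It lies on TARO_scaffold_000444 from 46752 to 74410 (minus strand, 24 exons), with levels of 6529.9, 5489 and 3591 CPM in Niue, 4851, 6685 and 3076 in Palau 10, and 4957, 5961 and 4227 in Sam-07, a 2.17-fold range. Taro_040431 (TARO_scaffold_003907, 10122 to 11800, plus strand, 3 exons) had 4891, 3636 and 2971 CPM in Niue, 5568, 4982 and 3487 in Palau 10, and 8903, 3617 and 6586 in Sam-07 and was highest in Sam-07 replicate 1. Taro_028950 (TARO_scaffold_001897, 102070 to 102873, minus strand, 1 exon) had the widest range of the 10. Its levels were 1261, 866 and 2511 CPM in Niue, 4944, 1477 and 7094 in Palau 10, and 14534, 729 and 7629 in Sam-07. It was high in Sam-07 replicates 1 and 3 and in Palau 10 replicate 3, and lowest in Sam-07 replicate 2, so the highest and the lowest value came from 1 cultivar.

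**Figure D2:**
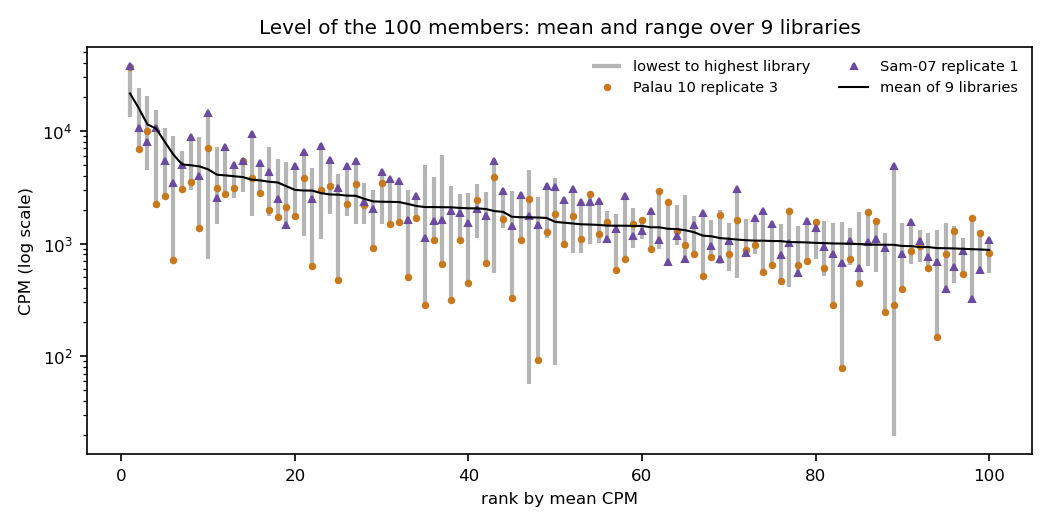
Each grey bar spans the lowest to the highest CPM (log scale) of 1 member over the 9 libraries, with members ordered by mean CPM (black line) from rank 1 to 100; circles mark Palau 10 replicate 3 and triangles Sam-07 replicate 1. The mean falls 24.5-fold from the first member to the last, and the circles form the low end of 43 bars while the triangles form the high end of 35.

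Levels between gene models are comparable only per length, and by TPM (counts divided by summed exon length, scaled to a total of 1e6 per library) the order changed. Of the 100 members, 73 were also among the 100 highest by mean TPM under the same exclusion. The 27 that were not had a median summed exon length of 2426 bp and the shortest of them 1446 bp, whereas the 27 gene models that took their places had a median of 414 bp. The median TPM of the members was 1509. By mean TPM the first 5 members were Taro_025568 at 24459, Taro_039095 at 24290.2, Taro_014754 at 12605, Taro_006985 at 8712 and Taro_028950 at 6875. Taro_025568 and Taro_039095 did not differ in TPM beyond their spread over libraries, with levels of 36344, 23459 and 13862 TPM in Niue, 26845, 39067 and 11361 in Palau 10, and 15042, 30911 and 23238 in Sam-07 for Taro_025568. For Taro_039095 the levels were 23196, 17443 and 11498 TPM in Niue, 17904, 17768 and 45264 in Palau 10, and 40175, 21788 and 23576 in Sam-07. Taro_006985 (TARO_scaffold_000216, 542793 to 543080, minus strand, 1 exon, 288 bp) ranked 37 by CPM and had 2241, 2361 and 2249.8 CPM in Niue, 1101, 1330.3 and 654 in Palau 10, and 1619.7, 1268 and 6096 in Sam-07. Its highest value was that of Sam-07 replicate 3, and all 3 Palau 10 values lay below all 3 Niue values.

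Rank within a library was held by some members and lost by others. In the list of 100 most abundant gene models of every library were 44 members, and 17 more were missing only from that of Palau 10 replicate 3, so that 61 were in all lists of the other 8 libraries. In the top 200 of every library were 76 members. Another 8 members reached the top 100 of fewer than 5 libraries. Spearman's rho of the 100 levels between pairs of libraries, a correlation across genes, which are no independent replicates, was 0.841 to 0.846 within Niue, 0.304 to 0.882 within Palau 10, 0.423 to 0.859 within Sam-07 and 0.289 to 0.938 between cultivars. Niue replicate 2 and Palau 10 replicate 2, of different cultivars, had the highest of these values. Palau 10 replicates 1 and 2 alone gave 0.882, and both pairs that include Palau 10 replicate 3 gave 0.304 and 0.362. Sam-07 replicates 1 and 3 gave 0.859, and Sam-07 replicate 2 gave 0.423 and 0.492 with them. Pairs of Niue libraries shared 83 to 86 of their 100 most abundant gene models, pairs of Palau 10 libraries 50 to 86 and pairs of Sam-07 libraries 76 to 81.

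Over the 9 libraries the ratio of highest to lowest CPM had a median of 3.17 over the members, against 2.84 over the next 100 in rank and 2.84 over the 17882 tested gene models without a count of 0. Without Palau 10 replicate 3 the median of the members was 2.34, and leaving out any other library gave 2.89 to 3.17. The ratio was at most 2 for 8 members and at least 10 for 9, and at least 10 for 4 without Palau 10 replicate 3. The steadiest was Taro_045421 (TARO_scaffold_005337, 57470 to 63636, minus strand, 11 exons), with levels of 1703, 1444 and 1093 CPM in Niue, 1545, 1511 and 1634 in Palau 10, and 1287, 1392 and 1292 in Sam-07, a 1.56-fold range. It stayed between ranks 47 and 72 in all 9 libraries, and its Sam-07 values all lay below its Palau 10 values by a margin smaller than the spread within Niue. The next steadiest were Taro_013213 (1.69-fold, mean 2156 CPM), Taro_008126 (1.8-fold, 1442 CPM), Taro_010947 (1.87-fold, 3896 CPM) and Taro_018178 (1.9-fold, 931 CPM).

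The widest range belonged to Taro_043574 (TARO_scaffold_004742, 37745 to 38545, plus strand, 1 exon), 249-fold. Its levels were 84.6, 48.8 and 466 CPM in Niue, 480.0, 100.3 and 285 in Palau 10, and 4904, 19.7 and 2381 in Sam-07. It was high in Sam-07 replicates 1 and 3, and was in the top 100 of those libraries only, while in Sam-07 replicate 2 it ranked 8228. Taro_008034 (TARO_scaffold_000260, 204634 to 205566, minus strand, 2 exons) had 1418, 140.0 and 1046 CPM in Niue, 4519.8, 1676 and 2480.0 in Palau 10, and 1771, 56.9 and 2269.9 in Sam-07, a 79.4-fold range. Its lows were Sam-07 replicate 2 and Niue replicate 3, with the other libraries of both cultivars far above them. Taro_056118 (TARO_scaffold_014872, 6546 to 8830, minus strand, 3 exons) had 159.9, 2976 and 3836 CPM in Niue, 116, 83.4 and 1812 in Palau 10, and 3147, 85.1 and 1809 in Sam-07. It fell into a low set of Niue replicate 2, Palau 10 replicates 1 and 2 and Sam-07 replicate 2, where the 5 gene models left out took 0.351% to 1.86% of fragments, and a high set of the other 5 libraries, where they took 2.59% to 26.3%. Their part in its level was not tested. Taro_017198 (TARO_scaffold_000779, 350471 to 352247, minus strand, 3 exons) had 1887, 1516 and 1325 CPM in Niue, 2614, 2406 and 91.8 in Palau 10, and 1461, 2043 and 1981 in Sam-07, and its 28.5-fold range came from Palau 10 replicate 3 alone. The fewest fragments behind a member value were 297, for Taro_043574 in Niue replicate 3.

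At the border of the set the levels were continuous. Just inside were Taro_032009 at 891, Taro_029614 at 886 and Taro_014679 at 878 mean CPM, and just outside were Taro_019797 at 875, Taro_029442 at 874 and Taro_026547 at 873. Ranking by the median over libraries in place of the mean kept 93 of the 100 members, ranking by mean log2(CPM + 1) kept 95, TMM-scaled CPM kept 98, and leaving out 1 library kept 95 to 98.

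The first comparison asked whether the members differed between the 3 cultivars. No member was called: 0 of 100 passed an adjusted p of 0.05 in edgeR's quasi-likelihood F-test, fitted over all 18865 tested gene models, where 2.72% were called. All 100 members were tested. At an unadjusted p under 0.05 there was 1 member, Taro_035829, named here after its values were seen, where 12.1% of all tested gene models passed. DESeq2 called 0 members (5.12% of all gene models it adjusted). The lowest adjusted p of a member was 0.383 with edgeR and 0.108 with DESeq2. These p-values do not show that the members were alike in the cultivars, as the intervals below are wide.

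In the pairwise comparisons edgeR likewise called 0 members: between Palau 10 and Niue, where 1.81% of all tested gene models were called, between Sam-07 and Niue (1.22%) and between Sam-07 and Palau 10 (1.73%). At an unadjusted p under 0.05 there was 1 member between Palau 10 and Niue (11.5% of all tested gene models), lower in Palau 10 (5.72%), with 0 higher (5.74%). There were 4 between Sam-07 and Niue (9.72%), of which 3 were higher in Sam-07 (5.08%) and 1 lower (4.64%). There were 2 between Sam-07 and Palau 10 (10.3%), both higher in Sam-07 (4.83%), with 0 lower (5.52%). DESeq2 called 0 members in each (3.15%, 2.66% and 3.60% of all gene models adjusted), with a lowest adjusted p of 0.208, 0.0752 and 0.112. The median absolute log2 fold change of the members was 0.24, 0.33 and 0.38, in the same order, beside 0.33, 0.28 and 0.30 over all tested gene models. The median half-width of the 95% interval was 1.02 on the log2 scale in each comparison for the members, against 0.82 over all tested gene models. The interval lay within 4-fold in both directions for 86, 84 and 86 members, beside 76%, 77.4% and 78.1% of all tested gene models. It lay within 2-fold for 21, 12 and 11 members, beside 39%, 40.9% and 40.2%. The 3 comparisons share libraries. A fitted fold change above 0 was found in 44 members for Palau 10 against Niue, in 58 for Sam-07 against Niue and in 76 for Sam-07 against Palau 10, beside 52.3%, 53.3% and 52.4% of all tested gene models. These counts carry no test. Without Palau 10 replicate 3 they were 58, 58 and 58, beside 50.4%, 53.4% and 55.8% of all tested gene models, and edgeR called 0 members in all 4 tests. With library totals in place of TMM factors they were 56, 65 and 69, beside 64.5%, 59% and 43.5%, while the median log2 fold change of all tested gene models was 0.16, 0.08 and -0.07.

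The members with an unadjusted p under 0.05 in a pairwise comparison are given with their values, in no order of p. Taro_035829 (TARO_scaffold_002968, 80312 to 81679, minus strand, 2 exons) had levels of 1381, 1420.0 and 1328 CPM in Niue, 949, 1258 and 650.1 in Palau 10, and 549.8, 1120.0 and 596 in Sam-07. All Niue values lay above all values of both other cultivars, and the fitted log2 fold change of Sam-07 against Niue was -0.96 (SE 0.33, 95% interval -1.71 to -0.21), with an edgeR adjusted p of 0.352. Taro_036054 (TARO_scaffold_003004, 28555 to 32632, plus strand, 4 exons) had 1550.0, 1300.4 and 1245 CPM in Niue, 818, 1406 and 1095 in Palau 10, and 2349, 1630.4 and 1939 in Sam-07, with all Sam-07 values above all others. Its log2 fold change of Sam-07 against Palau 10 was 0.97 (SE 0.35, 95% interval 0.17 to 1.77), edgeR adjusted p = 0.348. Taro_030721 (TARO_scaffold_002128, 124603 to 125498, minus strand, 2 exons) had 4235, 5306 and 4392 CPM in Niue, 2043, 3319 and 2096 in Palau 10, and 1473, 4719 and 1527 in Sam-07. Niue lay above Palau 10 without overlap, with a log2 fold change of Palau 10 against Niue of -1.04 (SE 0.46, 95% interval -2.07 to -0.01) and an edgeR adjusted p of 0.43, while Sam-07 replicate 2 lay within the Niue range. In Taro_006985 the log2 fold change of Sam-07 against Palau 10 was 1.70 (SE 0.64, 95% interval 0.25 to 3.16), edgeR adjusted p = 0.371, and Sam-07 replicate 2 lay within the Palau 10 range.

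The other members under an unadjusted p of 0.05 had their highest Sam-07 values in replicates 1 and 3. Taro_050602 (TARO_scaffold_007658, 6660 to 7460, plus strand, 1 exon) had 2411, 1746 and 2088 CPM in Niue, 3749, 2595 and 3808 in Palau 10, and 9427, 2164 and 5262 in Sam-07, with a log2 fold change of Sam-07 against Niue of 1.48 (SE 0.59, 95% interval 0.15 to 2.81), edgeR adjusted p = 0.448. Taro_028960 (TARO_scaffold_001898, 108930 to 110035, plus strand, 3 exons) had 1642, 1087 and 1716 CPM in Niue, 2900.0, 1750.0 and 2967 in Palau 10, and 7348, 1168 and 4675 in Sam-07 and a log2 fold change of 1.62 (SE 0.68, 95% interval 0.09 to 3.15), edgeR adjusted p = 0.48. Taro_034669 (TARO_scaffold_002756, 16012 to 18100, plus strand, 4 exons) had 673, 545 and 1024 CPM in Niue, 1268, 813 and 3888 in Palau 10, and 5436, 742 and 3096 in Sam-07 and a log2 fold change of 2.08 (SE 0.85, 95% interval 0.16 to 4.01), edgeR adjusted p = 0.466. In all 3, Sam-07 replicate 2 lay within the Niue range and the other Sam-07 libraries above it. Without Sam-07 replicate 2 the lowest edgeR adjusted p of any member was 0.081 for Sam-07 against Niue, with 0 members called.

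Cultivars without overlap in CPM were counted as well. All 3 Palau 10 values lay above all 3 Niue values in 4 members (13.0% of all tested gene models) and below them in 3 (6.17%). Sam-07 lay above Niue in 6 members (9.44%) and below in 1 (5.36%), and above Palau 10 in 3 (3.95%) and below in 1 (7.65%). Each of these counts, as a percentage of the 100 members, was below that of all tested gene models. Taro_029153, Taro_036054 and Taro_019708 had all Sam-07 values above all values of both other cultivars, and Taro_035829 had all Niue values above all others. Taro_040558 (TARO_scaffold_003940, 33070 to 36257, minus strand, 5 exons) had all Niue values below those of both other cultivars, with 852, 865 and 804 CPM in Niue, 1260.3, 1017 and 969 in Palau 10, and 1680.3, 917 and 1185 in Sam-07.

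**Figure D3:**
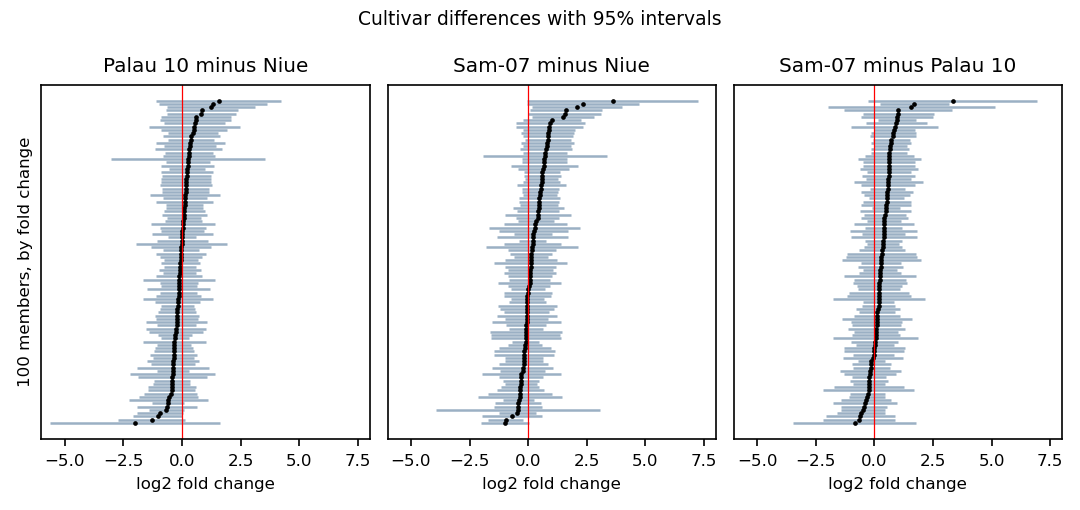
Each panel shows the fitted log2 fold change (x axis, dots) and its 95% interval (bars) of the 100 members, sorted by fold change, for 1 pair of cultivars; the first-named cultivar is higher to the right of the red line at 0. The median half-width is 1.02 in each panel and no member passed an adjusted p of 0.05.

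Most of the variation of the median member lay within cultivars. Differences between cultivar means held a median of 17.4% of the sum of squares of log2(CPM + 1) of a member over the 9 libraries. The value was 14.7% for the next 100 in rank and 23.8% for all tested gene models. Any division of 9 libraries into 3 groups takes up a part of this sum, also with no difference between cultivars. These percentages therefore do not measure an effect of cultivar. Members chosen by a mean can include some that are high in few libraries. The median SD within cultivars was 0.57 on the log2 scale, beside 0.50 for the next 100 in rank and 0.40 for all tested gene models. The first 2 principal components of the members held 45.0% and 30.3% of their variance. On the first, Palau 10 replicate 3 (0.61) and Sam-07 replicate 1 (0.42) lay opposite Sam-07 replicate 2 (-0.43) and Palau 10 replicate 2 (-0.30). On the second, Palau 10 replicate 3 (0.59) and Sam-07 replicate 2 (0.32) lay opposite Sam-07 replicates 3 (-0.42) and 1 (-0.38) and Palau 10 replicate 1 (-0.35). On both components the libraries of Palau 10 lay on both sides of 0, and so did those of Sam-07. Without Palau 10 replicate 3 the first 2 components held 56.2% and 23.5%, and the median SD within cultivars was 0.41 (all tested gene models 0.35). Differences between cultivar means then held a median of 33.1% (all tested gene models 33.1%). The part taken up by the division alone is also larger with 1 library fewer.

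Members were joined by the correlation of their log2(CPM + 1) over the 9 libraries (average linkage) and divided into 3 groups. The number of groups was set and not found from the data. The grouping was made from the values it describes, so no test is given. Group A held 47 members and a mean of 13.1% of fragments, group B held 38 members and 10.4%, and group C held 15 members and 1.76%. In group A, 35 members had their highest value in Sam-07 replicate 1, where the group took 21.8% of fragments, against 8.74% in Niue replicate 4 and 9.20% in Sam-07 replicate 2. In group B, 31 members had their lowest value in Palau 10 replicate 3, where the group took 3.92% of fragments against 8.20% to 13.7% in the other libraries. In group C, 7 members were highest in Palau 10 replicate 3, where the group took 2.52% against 1.25% to 2.28% elsewhere. The share of group A was 3.55 times that of group B in Palau 10 replicate 3, 2.66 times in Sam-07 replicate 1 and 0.748 times in Sam-07 replicate 2.

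Of the top 10 members, Taro_039095, Taro_045140, Taro_040431 and Taro_028950 were in group A and the other 6, led by Taro_025568, in group B. The median pairwise correlation was 0.51 within group A, 0.72 within group B and 0.52 within group C, and without Palau 10 replicate 3 it was 0.67, 0.55 and 0.55. Without Sam-07 replicate 1, where most of group A peaked, it was 0.36, 0.74 and 0.53. Over all 4950 pairs of members the median Pearson correlation was 0.20 (n = 9 libraries), beside 0.21 over the next 100 in rank and 0.097 over all pairs of tested gene models. A correlation over 0.7 was found in 16% of the pairs of members, 18.0% of the pairs of the next 100 in rank and 6.73% of all pairs. All gene models of a library share its total, and with the 5 gene models left out taken from the totals the median was 0.154. Without Palau 10 replicate 3 it was 0.177.

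**Figure D4:**
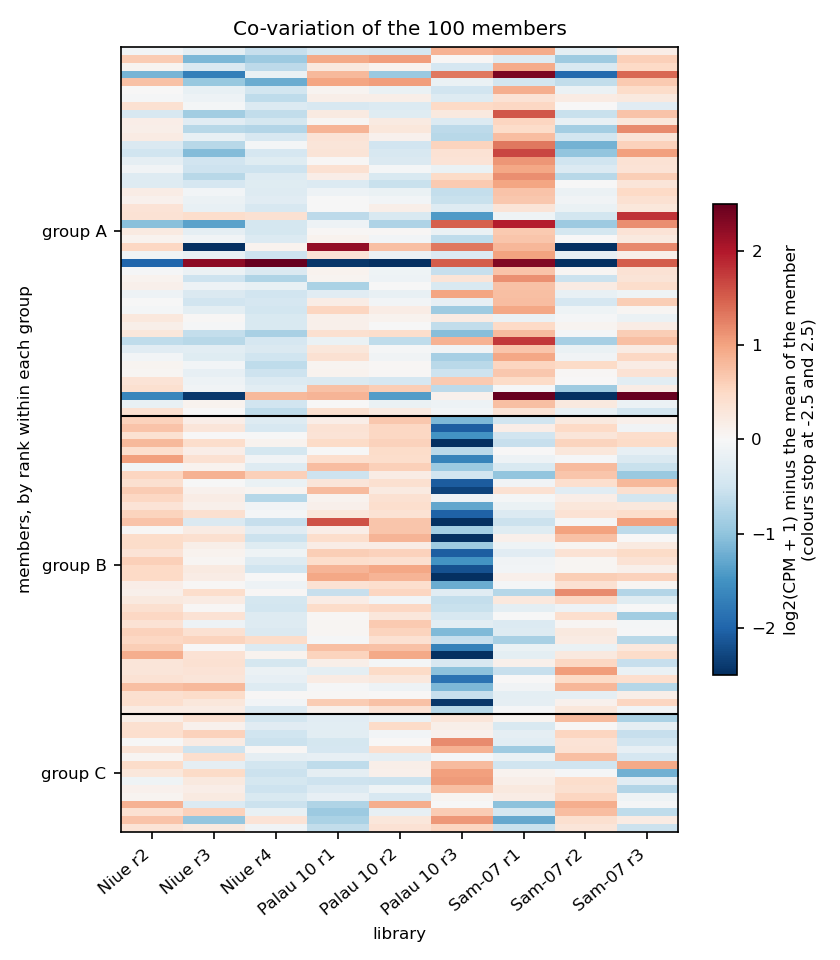
Rows are the 100 members in groups A (47), B (38) and C (15), ordered by rank within each group, and columns the 9 libraries (r is the replicate number); colour gives log2(CPM + 1) minus the mean of the member, red above and blue below it. Group A is red mainly in Sam-07 replicate 1 and group B blue in Palau 10 replicate 3.

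Some pairs of members followed each other closely over the libraries. The highest correlations among the 4950 pairs, picked as extremes and so described with no test, were those of Taro_018209 with Taro_016750, Taro_007536 with Taro_053767, and Taro_028960 with Taro_016371. For Taro_018209 with Taro_016750, Pearson's r was 0.996 and Spearman's rho 0.75 (n = 9). Without the 2 libraries farthest from the median, Palau 10 replicate 3 and Sam-07 replicate 1, r was 0.92. Taro_016750 (TARO_scaffold_000749, 3002 to 7711, plus strand, 5 exons) had 3009, 2684 and 1956 CPM in Niue, 2471, 2632 and 501 in Palau 10, and 1611, 2622 and 2751 in Sam-07. Like Taro_018209 it was lowest in Palau 10 replicate 3 and next lowest in Sam-07 replicate 1. For Taro_007536 with Taro_053767, r was 0.990, rho was 0.93, and r without the same 2 libraries was 0.87. Taro_007536 (TARO_scaffold_000238, 605128 to 611180, plus strand, 7 exons) had 2332, 1964 and 1728 CPM in Niue, 2818, 2756 and 446 in Palau 10, and 1529, 2368 and 2562 in Sam-07. Taro_053767 (TARO_scaffold_010134, 21687 to 24997, minus strand, 2 exons) had 1073, 967 and 757 CPM in Niue, 1239, 1322 and 148 in Palau 10, and 682, 856 and 1158 in Sam-07. Both were lowest in Palau 10 replicate 3. For Taro_028960 with Taro_016371, r was 0.989 and rho 0.95, and without Sam-07 replicates 1 and 3 r was 0.97. Taro_016371 (TARO_scaffold_000723, 351214 to 353132, plus strand, 2 exons) had 1938, 1487 and 1941 CPM in Niue, 2714, 1864 and 3353 in Palau 10, and 5396, 1495 and 3714 in Sam-07, highest like Taro_028960 in Sam-07 replicates 1 and 3.

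The most opposed pairs were Taro_034669 with Taro_035829 (r = -0.966, rho = -0.92), Taro_030721 with Taro_028960 (r = -0.960, rho = -0.97) and Taro_030721 with Taro_016371 (r = -0.950, rho = -0.92), each over 9 libraries. Without the 2 farthest libraries r was -0.94, -0.96 and -0.93. Taro_030721 was highest in the 3 Niue libraries and Sam-07 replicate 2, the libraries in which Taro_028960 was lowest, and at its minimum in Sam-07 replicate 1, where Taro_028960 peaked.

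The members lay on 99 scaffolds, and 1 scaffold held a pair of them. On TARO_scaffold_000404, Taro_010946 (257581 to 257790, plus strand, 1 exon, the shortest member at 210 bp) and Taro_010947 (259800 to 265990, plus strand, 9 exons) are neighbours on the plus strand, with 2009 bp between them. Taro_010946 had 1244, 897 and 773 CPM in Niue, 761, 726 and 1547 in Palau 10, and 1369.5, 989.6 and 819 in Sam-07. Taro_010947 had 4941, 3669 and 2977 CPM in Niue, 2872, 2982 and 5362 in Palau 10, and 5374, 3783 and 3100.4 in Sam-07. The ratio of the second to the first stayed between 3.47 and 4.11 in all 9 libraries (r = 0.98, rho = 0.93, n = 9; r = 0.98 without Palau 10 replicate 3 and Sam-07 replicate 1). Whether the 2 gene models are parts of 1 transcript was not tested. Another 4 members overlap in part a gene model on the opposite strand, when each is taken from its first to its last exon, introns included. These are Taro_026574, Taro_036054, Taro_019079 and Taro_051349, with overlaps of 210, 442, 2302 and 444 bp. Their partners had a mean of 3.74, 0.196, 1.98 and 8.59 CPM, against 1688, 1482, 1434 and 1060 CPM for the members. The recorded counting did not use strand and left out fragments on several gene models. RNA of either strand on a member's exons would count for it, except where exons of both gene models overlap. Fragments there would count for neither, which could lower the values of members and partners.

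The members had lower medians of exon number and intron length than all tested gene models. Their median was 3.5 exons, against 4.5 for the next 100 in rank and 5 for all tested gene models. Of the 100 members, 12 had 1 exon, 20 had 2 and 28 had 6 or more, beside 9.88%, 13.6% and 40.6% of all tested gene models. Over all 57034 gene models of the annotation the median was 3 exons, and 25.6% had 6 or more. The longest intron exceeded 1000 bp in 33 members (33.0%), against 52.0% of the next 100 in rank and 64.3% of all tested gene models. Among gene models with an intron it had a median of 633 bp in the members, 1179 bp in the next 100 and 1940 bp in all tested. From first to last exon the members spanned a median of 2581 bp, the next 100 in rank 3882 bp and all tested gene models 4727 bp. The summed exon length differed less, with a median of 1427 bp for the members, 1862 bp for the next 100 in rank and 1501 bp for all tested gene models. A longer transcript yields more fragments per molecule, so choice by CPM favours length. Chosen by TPM, the top 100 had a median of 2 exons and 985 bp. Scaffold ends can cut gene models short, and this was not tested.

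Among the members the longest was Taro_033553 (TARO_scaffold_002571, 64937 to 73061, plus strand, 23 exons, 5618 bp), with 1589, 891 and 1293 CPM in Niue, 948, 1704 and 2329 in Palau 10, and 686, 1627 and 1103 in Sam-07 and a mean TPM of 304, highest in Palau 10 replicate 3. The groups of co-variation held members of unlike exon number. Of the 12 members with 1 exon, 11 were in group A and 9 were highest in Sam-07 replicate 1. Of the 28 with 6 or more exons, 15 were in group B, 8 in group C and 5 in group A. The members with 1 exon took 5.23% of fragments in Sam-07 replicate 1 and 3.73% in Sam-07 replicate 3, but 1.39% in Sam-07 replicate 2. They took 1.92%, 1.48% and 1.68% in Niue and 2.33%, 1.74% and 2.42% in Palau 10. Their share differed more between libraries of Sam-07 than between Niue and Palau 10. These shares are sums in which a few members weigh most, so they do not show a trait of all 12. In Sam-07 replicate 1 the largest parts came from Taro_028950 (14534 CPM), Taro_050602 (9427), Taro_020658 (6482) and Taro_043574 (4904), described together below. In Sam-07 replicate 3, Taro_006985 had 6096 CPM.

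**Figure D5:**
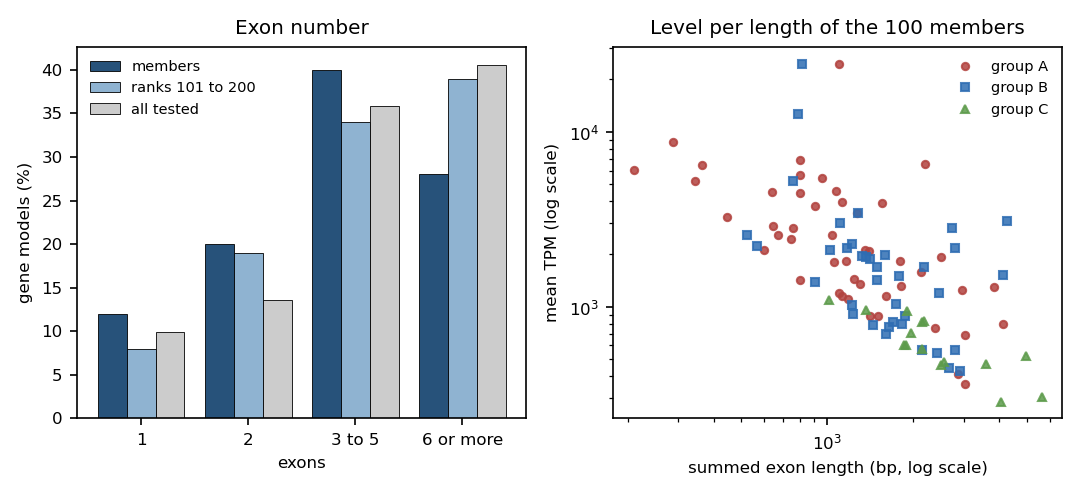
The left panel gives the percentage of gene models in 4 classes of exon number for the members, for the next 100 gene models by mean CPM and for all tested gene models; the right panel plots mean TPM against summed exon length (both log scales) of each member, by group of co-variation. Members with 6 or more exons make up 28.0% against 40.6% of all tested gene models. TPM falls with length across the members (Spearman's rho = -0.70 over 100 gene models), and TPM is by definition a count divided by this length.

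A set of 4 members shared a size, 1 exon of 801 to 804 bp, and a profile: Taro_028950, Taro_050602, Taro_020658 and Taro_043574. They were noticed after their values were seen, and the size range was set by Taro_043574 and Taro_028950. Taro_020658 (TARO_scaffold_001030, 249854 to 250657, minus strand, 1 exon) had 2030.4, 1611 and 2513 CPM in Niue, 3226, 1878 and 3839 in Palau 10, and 6482, 1157 and 3894 in Sam-07. Each of the 4 was highest in Sam-07 replicate 1, and all lie on different scaffolds. Taro_028950, Taro_020658 and Taro_043574 were lowest in Sam-07 replicate 2, and Taro_050602 in Niue replicate 3. The 6 pairwise correlations ran from 0.87 to 0.98 (rho 0.77 to 0.98, n = 9). The profile was not particular to this size. Taro_028960 (3 exons) and Taro_016371 (2 exons), also highest in Sam-07 replicates 1 and 3, had r = 0.989 with each other. Of the 47 members of group A, 35 were highest in Sam-07 replicate 1. The range over libraries was 5.4-fold for Taro_050602 and 5.6-fold for Taro_020658, but 19.9-fold for Taro_028950 and 249-fold for Taro_043574. The annotation holds 23 gene models of this size with 1 exon, of which 11 were tested, and the highest of the other 19 had a mean of 431 CPM. Whether they are related in sequence was not tested. Fragments shared by near-identical copies were not counted, which would make their levels uncertain.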

How the data were processed

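Leaf RNA of 3 taro cultivars was sequenced in 9 libraries. The labels' protocols give a CTAB extraction from 4 g of tissue, drying of the RNA for 40 h and a stranded TruSeq kit. The submitters' processing notes list Subread 1.4.6, featureCounts, STAR (as version 3.5.0a), Trimmomatic 0.33 and bcl2fastq 1.8.4. The deposited counts are, per the file headers, fragments over the exons of each gene model from featureCounts 1.4.6-p4, which did not use strand and left out multi-mapped fragments and those on several gene models. The sources used here name no genome build. Positions are counted from 1.

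The members and the rules for describing them were chosen with earlier results of these data known. CPM was the count over the file total times 1e6. Named members are the 10 highest, those called (0), the 5 with the widest and the 5 with the narrowest range, those beside the border, the extreme pairs, the neighbours, the longest, the shortest, the one with most exons and the 5 highest by TPM. Others were chosen after their values were seen. The two-sided tests came from glmQLFTest of edgeR 4.0.16 (R 4.3.3), with TMM factors, filterByExpr (minimum count 10, minimum total 15) and 1 fit of cultivar to all 9 libraries. Benjamini-Hochberg adjustment ran over 18865 gene models at 0.05. The SE is the fitted log2 fold change over the root of its F statistic. Simulated counts with known changes were used to check the fit. Their spread followed a shared trend with level and not that of each gene model. They do not show how often a change in these members would be called. With 5468567 to 18175384 fragments a library, 3 fragments are 0.165 to 0.549 CPM. Replicates of a cultivar differed beyond sampling noise in every pair (chi-square per degree of freedom 35.7 to 260.0, over gene models with at least 20 fragments). The alternatives were DESeq2 1.42.0 and other factors, filters, rankings and library sets, of which leaving out a library for the rank lists, the cultivar means, the variance and the signs of the fold changes was added after seeing the data.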

Additional observations from a re-analysis of the deposited data

How the results depend on the processing

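In all 75 tests, the 4 of the main fit included, 0 members were called. Tests of 1 fit share its libraries, so they are no independent checks. The fits covered TMM, RLE or no factors, DESeq2, no filter, 10 CPM in 3 libraries, the replicate number as a block, robust estimation, the 5 gene models removed, only the libraries of a pair, and each library left out in turn. The lowest adjusted p of a member was 0.0752 with DESeq2 and 0.081 with edgeR, the latter without Sam-07 replicate 2. With the replicate block 0 members were called in each of the 4 tests. Over all gene models the test among the 3 cultivars called 513, against 1166 with DESeq2, 127 at 10 CPM in 3 libraries, 25 with the replicate block and 273 without Niue replicate 4, the fewest with 1 library left out. The deviations of same-numbered libraries had r from -0.48 to 0.42 over 7 pairs. These few values of both signs cannot show whether the numbers pair the samples, and Niue replicate 4 has no partner. None of the 33 members chosen by the naming rules passed in the test among the 3 cultivars in any setting. Members named only on other grounds are not in this number, but the 75 tests covered all members.

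Members in the top 100 of every library numbered 44, and 76 counted the top 200 of each library. The median correlation between members was 0.20, 0.244 with TMM factors, 0.154 with totals without the 5 gene models left out, 0.248 as deviations from the cultivar means, and 0.152 to 0.227 with 1 library left out. By mean TPM the median exon number was 2 in place of 3.5. A larger fitted difference was also not called with 3 libraries per cultivar. Taro_043574 had a log2 fold change of 3.60 for Sam-07 against Niue, with an edgeR adjusted p of 0.521. Its Sam-07 libraries lay far apart, at 4904, 19.7 and 2381 CPM, with replicate 2 below all Niue values.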
